A study of Mus musculus with 2 samples.

Results

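A set of 10 genes from 3 calcium- or sugar-binding families was followed in single cells sorted from lymph node and from tumour. The members, taken by symbol from the 27998 genes of the files, were S100a4, S100a6, S100a10, S100a11 and S100a13, the annexins Anxa1, Anxa2 and Anxa6, and the galectins Lgals1 and Lgals3. All 10 were present, and each held at least 50 unique molecular identifiers (UMIs, each standing for 1 captured transcript) over both libraries. The mice were of the C57BL/6 strain and of genotype Foxp3Cre-YFP, in which the locus of Foxp3, the lineage factor of regulatory T (Treg) cells, drives Cre recombinase and a yellow fluorescent protein. They were 5 to 8 weeks old. The lymph node group was 1 library from unchallenged animals, and the tumour group was 1 library from B16, a transplanted mouse melanoma, at day 14. Foxp3Cre-YFP was carried by both groups, no label names the sort gate or counts the mice, and no library had a replicate. No test between the libraries was therefore made, no p-value is given, and every interval below is a 95% interval of counting error alone, which takes each UMI as independent and leaves out variation between cells and mice.

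Most S100 proteins are small EF-hand proteins that bind calcium, pair up and then change shape so that they can grip other proteins. Annexins bind acidic phospholipids when calcium is present, and S100A10 and annexin A2 join into a complex beneath the plasma membrane, while S100A11 binds annexin A1. Galectins are secreted lectins that bind galactose-containing sugars on surface glycoproteins. Galectin-1 has been described as a product of Treg cells that takes part in their suppressive action on other T cells.

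After filtering, 2202 lymph node cells (10681101 UMIs, median 4100 per cell) and 1457 tumour cells (16669263 UMIs, median 8766 per cell) were retained, and 1 retained barcode occurred in both libraries. With every cell thinned to 1800 UMIs, 62.5% of the lymph node cells and 66.4% of the tumour cells held a UMI of the T cell receptor subunit Cd3e. A UMI of the Treg factor Ikzf2 was found in 56.7% and 82.2%, and of Foxp3 itself in 4.18% and 4.26%. The 4 listed CD8 T cell genes summed to 116 CPM in lymph node and 1008 CPM in tumour. Most of that was Nkg7, a cytotoxic granule gene, at 98.1 and 987 CPM, Cd8b1 stood at 17.6 and 19.5 CPM, and no retained cell held a UMI of Cd8a. That allows a UMI of Cd8a in up to 0.136% and 0.206% of cells. How far it limits the cells expressing Cd8a was not tested, since its capture rate is not known here and Cd8b1 was found. For Cd4 a UMI was caught in 40.6% and 82.8% of cells before thinning, and in 20.9% and 33.4% after. Of 5 neutrophil genes S100a8, S100a9, Retnlg and Csf3r were at 0 in both libraries, and Cxcr2 held 8 and 5 UMIs. The 8 macrophage and monocyte markers summed to 2.06 CPM (UMI counts scaled to a common library total) in lymph node and 8.76 CPM in tumour with Adgre1 at 0, and the 6 melanoma markers to 0.187 and 35.3 CPM. Both sums were partly set by the cell filter, which capped C1qa, C1qb and Lyz2 of the former and Pmel, Dct and Mlana of the latter. Over the 9976 genes with at least 50 UMIs the median log2 ratio of tumour over lymph node was 0.14.

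For 4 of the 5 S100 members and Anxa2 the bases before the start are shown. S100a4 and S100a6 lie close together and were the most correlated pair across cells. S100a13, the nearest other member on chromosome 3, had the lowest ratio between the libraries of the S100 members. S100a13, S100a4 and S100a6 lie on chromosome 3 in that order, with 79189 and 6836 bases from 1 member to the next. Other S100 genes lie in these gaps, S100a14, S100a16, S100a3 and S100a2 in the first and S100a5 in the second. S100a11 and S100a10 lie 2896306 bases further on, 28792 bases apart (GENCODE M21, GRCm38). RefSeq gave windows for 7 of the 10 members on GRCm38.p6. Those of S100a4 (chr3:90603520-90603769), S100a6 (chr3:90612644-90612881), S100a11 (chr3:93520246-93520487), S100a13 (chr3:90514393-90514434) and Anxa2 (chr9:69453433-69453619), all on the plus strand, are printed without annotated exons. Capitals mark matches on either strand to TGANTCA (the AP-1 motif), GGGCGG (the GC box), TATAAA (the TATA box) and TGTGGT (the RUNX motif), none of which overlapped another here.
S100a4: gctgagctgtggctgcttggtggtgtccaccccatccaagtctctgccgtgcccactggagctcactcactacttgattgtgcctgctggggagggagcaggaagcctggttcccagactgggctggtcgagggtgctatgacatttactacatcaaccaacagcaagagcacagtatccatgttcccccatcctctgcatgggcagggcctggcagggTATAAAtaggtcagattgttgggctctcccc
S100a6: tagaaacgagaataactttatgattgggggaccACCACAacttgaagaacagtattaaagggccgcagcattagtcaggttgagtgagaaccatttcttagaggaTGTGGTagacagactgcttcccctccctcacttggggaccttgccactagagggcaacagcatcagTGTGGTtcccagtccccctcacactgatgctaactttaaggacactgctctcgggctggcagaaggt
S100a11: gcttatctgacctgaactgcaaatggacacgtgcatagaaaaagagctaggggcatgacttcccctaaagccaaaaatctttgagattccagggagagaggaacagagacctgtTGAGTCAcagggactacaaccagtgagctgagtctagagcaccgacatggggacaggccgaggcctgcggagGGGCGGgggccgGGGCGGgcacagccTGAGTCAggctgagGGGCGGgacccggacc
S100a13: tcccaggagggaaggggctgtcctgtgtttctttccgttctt
Anxa2: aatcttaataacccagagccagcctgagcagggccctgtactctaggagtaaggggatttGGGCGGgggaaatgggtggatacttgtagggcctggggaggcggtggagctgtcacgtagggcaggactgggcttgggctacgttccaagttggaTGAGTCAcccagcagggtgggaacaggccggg
The S100a4 stretch held 1 TATAAA, which starts 31 bases before the RefSeq start, and 12.4% of all 32851 windows held one in the same 250 bases. The S100a6 stretch of 238 bases held 3 matches to TGTGGT, where 13.5% of windows held at least 1 and 0.107% held 3 or more. The S100a11 stretch of 242 bases held 2 TGANTCA and 3 GGGCGG. At least 1 match was held by 6.64% and 31.6% of windows, and as many matches by 0.32% and 7.80%. In the 187 bases of Anxa2 there was 1 match to each of those motifs, which 5.14% and 22.2% of windows held. The 42 bases before S100a13 held no match to the 4 motifs, and beyond them lie exons of S100a1, which is transcribed the other way. A stretch of 203 bases before Lgals3, which is not printed, held no match to the 4 motifs either. A match is a description of the letters and no measure of binding.

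The members were higher in tumour than in lymph node cells as a group. Together they made up 0.289% of the UMIs of lymph node cells (30887 UMIs, interval 0.286 to 0.292%) and 1.14% of those of tumour cells (190743 UMIs, 1.14 to 1.15%), a 3.96-fold difference (3.91 to 4.01). At least 2-fold higher were 8 of 10 members, where 13.2% of all genes tested were, and the whole interval lay beyond 2-fold for the same number, against 8.8% of all genes. None was 2-fold lower, where 7.7% of genes were by the ratio and 4.17% by the whole interval. The median log2 ratio of the members was 2.20, against 0.14 over all genes. By family the summed level was 3.41-fold higher for the S100 genes (1894 and 6462 CPM), 3.93-fold for the annexins (254 and 998 CPM) and 5.36-fold for the galectins (744 and 3983 CPM). The median log2 ratio was 2.96 when each cell weighed the same, and 1.61 in the 211 lymph node and 244 tumour cells with a Foxp3 UMI.

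Among the S100 genes, S100a4, whose product binds nonmuscle myosin and is known for its part in cell motility, stood at 191 CPM (2044 UMIs) in lymph node and 1065 CPM (17745 UMIs) in tumour. That is a 5.56-fold difference (5.31 to 5.83). S100a6, which encodes calcyclin, stood at 254 and 1381 CPM, a 5.44-fold difference (5.23 to 5.66). The intervals of the S100a4 and S100a6 ratios overlapped. S100a11, which encodes an annexin A1 partner, went from 287 to 1142 CPM, or 3.98-fold (3.83 to 4.13). S100a10, whose product does not bind calcium and pairs with annexin A2, went from 953 to 2482 CPM, or 2.61-fold (2.55 to 2.66). S100a13, whose product takes part in the release of proteins without a signal peptide, went from 209 to 392 CPM, or 1.88-fold (1.79 to 1.97), so that its whole interval stayed under 2-fold. The 5 S100 ratios thus ran from 1.88 to 5.56 within 1 family.

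The annexins spread more widely. Anxa2, which encodes the membrane partner of S100A10, stood at 68.3 CPM (730 UMIs) in lymph node and 646 CPM (10765 UMIs) in tumour, a 9.45-fold difference (8.77 to 10.2) and the highest ratio of the 10 members. Its partner S100a10 differed by 2.61-fold, and the intervals of the 2 ratios did not overlap. Anxa6, whose product holds a doubled set of annexin repeats and binds membranes and actin, went from 183 to 344 CPM, or 1.88-fold (1.78 to 1.98). Anxa1, which encodes a ligand of formyl peptide receptors known for damping inflammation, rested on 27 UMIs in lymph node and 137 in tumour, or 2.53 and 8.22 CPM. Its ratio of 3.25 had an interval of 2.14 to 5.11. In cells with a Foxp3 UMI the ratio of Anxa1 was 0.818 (0.406 to 1.73) on 13 and 26 UMIs, and this interval spans 1. In the other cell sets and scalings tried it was higher in tumour.

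Both galectin members were more than 5-fold higher in tumour. Lgals1 stood at 725 CPM (7748 UMIs) in lymph node and 3871 CPM (64526 UMIs) in tumour, a 5.34-fold difference (5.21 to 5.46). Lgals3, which encodes the galectin that forms chains of several units, stood at 18.3 CPM (195 UMIs) and 112 CPM (1864 UMIs), a 6.13-fold difference (5.28 to 7.14). In cells with a Foxp3 UMI the ratios were 3.63 for Lgals1, 2.96 for Lgals3, 3.94 for S100a4, 4.10 for S100a6 and 6.94 for Anxa2. Those of S100a10 and S100a11 were 2.13 and 3.13, and those of S100a13 and Anxa6 were 1.90 and 1.73, close to their values in all cells. These cells are the 9.58% and 16.7% of each library in which a Foxp3 UMI was caught.

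**Figure D1:**
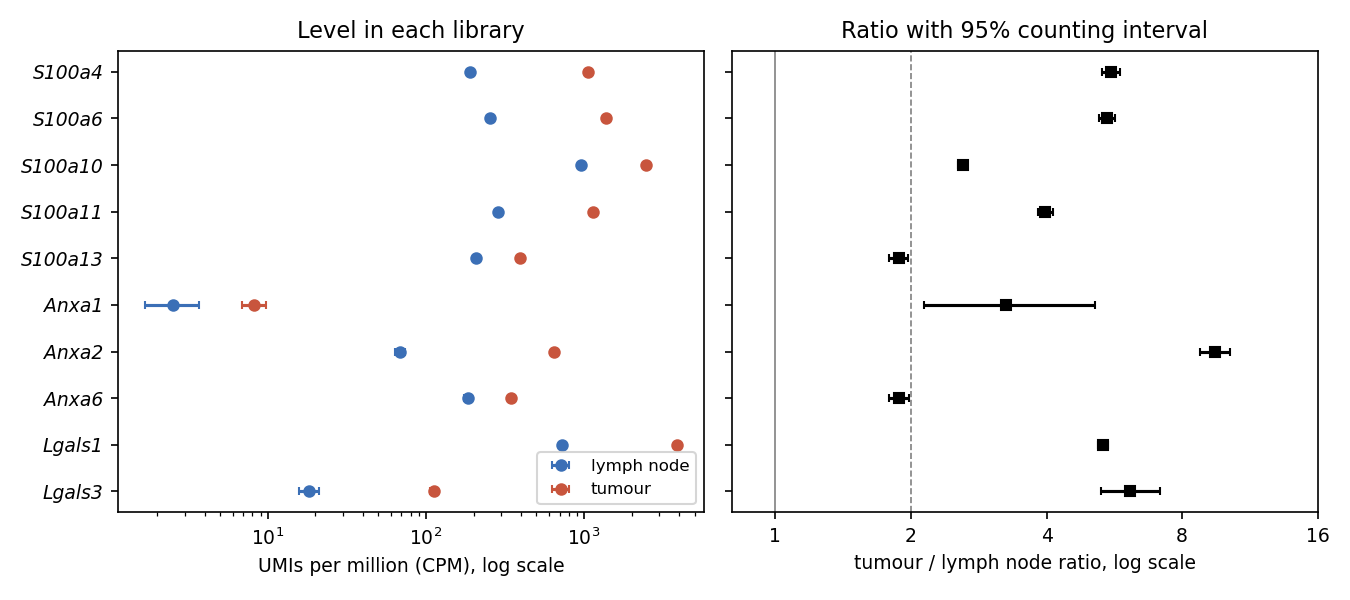
Level of each member in CPM (left, log axis, 1 point per library with its 95% counting interval) and the ratio of tumour over lymph node (right, log axis, solid line at 1 and dashed line at 2). Of the 10 members, 8 lie beyond the dashed line, Anxa2 farthest at 9.45, while S100a13 and Anxa6 lie at 1.88.

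A few very deep lymph node cells carried much of the lymph node level. The 111 lymph node cells with the most UMIs, 5% of all, held 17.0% of the library's UMIs but 44.1% of those of S100a4, 50.1% of S100a6, 46.3% of Anxa2, 52.1% of Lgals1, 71.3% of Lgals3 and 74.1% of the 27 UMIs of Anxa1. Of S100a13 and Anxa6 they held 21.3% and 23.4%. In tumour the 73 deepest cells held 15% of all UMIs and between 4.38% (Anxa1) and 14.3% (Lgals1) of each member's. Without these cells in both libraries the ratio was 9.09 for S100a4, 9.82 for S100a6, 15.4 for Anxa2, 9.32 for Lgals1 and 19.7 for Lgals3, 11.7 for Anxa1, and 2.09 for S100a13 and Anxa6 each. Among cells of 4000 to 8000 UMIs, 956 in lymph node and 598 in tumour, the ratios were 11.6 for S100a4, 13.3 for Anxa2, 7.62 for Lgals1, 28.5 for Lgals3 and 24.4 for Anxa1, and all 10 members were at least 2-fold higher in tumour. This band was chosen after the depths had been seen. Doublets were not removed, and their part in the deep cells was not tested.

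Shares of cells at equal depth gave the same order of tissues. With every cell thinned to 1800 UMIs, a UMI of S100a4 was found in 9.95% (8.73 to 11.3%) of lymph node cells and 73.3% (71.0 to 75.6%) of tumour cells, and in 14.5% and 93.1% before thinning. These ranges did not overlap, and a lymph node cell with S100a4 was the exception where a tumour cell with it was the rule. S100a6 was found in 12.0% and 74.5%, and S100a11 in 28.7% and 83.5%. Anxa2 was found in 7.13% and 57.6%, against 14.3% and 89.2% before thinning. Lgals1 was found in 39.4% (37.4 to 41.5%) and 98.0% (97.2 to 98.7%), and 75.6% of tumour cells held more Lgals1 UMIs than 95% of lymph node cells did. Nearly every tumour cell therefore held Lgals1, over a wide range of levels. The CPM of Lgals1 per tumour cell was 1402 at the 10th percentile, 3433 at the median and 6148 at the 90th percentile, against 0, 210 and 1150 in lymph node. S100a10 was already found in 66.6% of lymph node cells and reached 95.6% in tumour. S100a13 went from 28.8% to 52.4% and Anxa6 from 24.7% to 43.7%. Lgals3 was found in 1.45% and 17.9% (2.77% and 44.6% before thinning), and Anxa1 in 0.182% and 1.51%, where a thinned level is near 1 UMI in few cells. The median thinned cell held UMIs of 2 members in lymph node and of 6 in tumour, and 3 and 20 member UMIs in all.

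**Figure D2:**
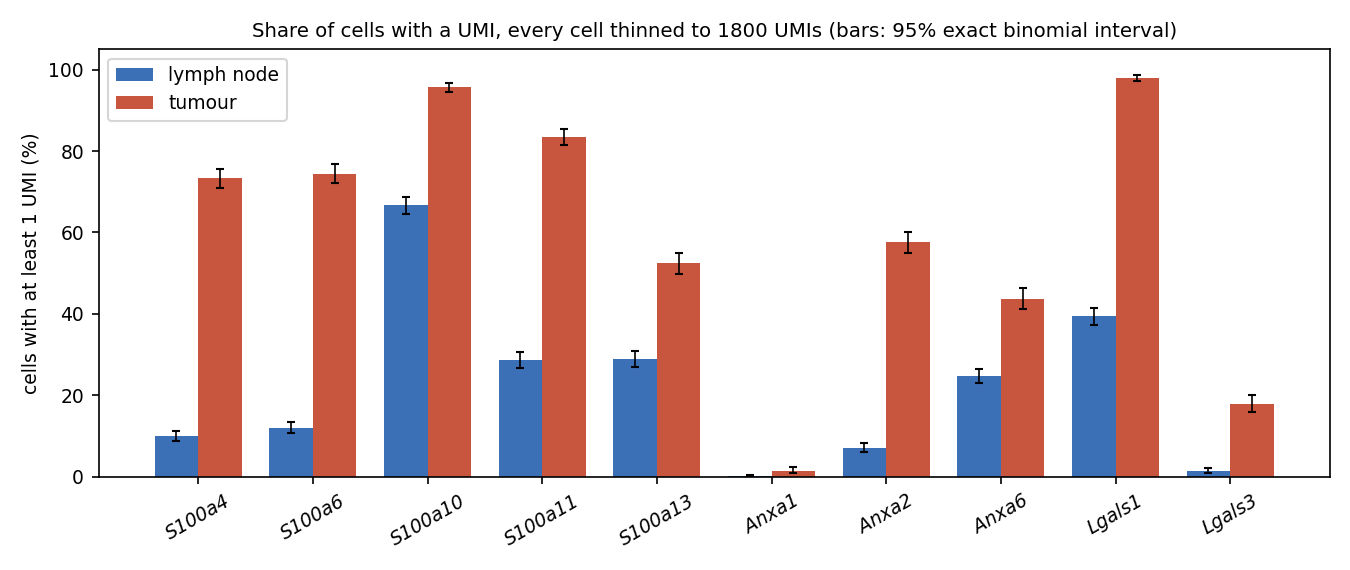
Share of cells with at least 1 UMI of each member, in percent, after thinning every cell to 1800 UMIs (bars by library, whiskers are 95% exact binomial intervals). The tumour bar is higher for each of the 10 members, from 1.51% for Anxa1 to 98.0% for Lgals1.

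The members differed in how evenly the lymph node cells shared them. The 10% of lymph node cells with the most S100a4 UMIs held 95.2% of them, and the same measure was 91.7% for S100a6, 87.1% for Anxa2 and 71.8% for Lgals1. It was 43.3% for S100a13 and 46.5% for Anxa6. The variance of the thinned counts was 4.05 times the mean for S100a4, 4.23 times for S100a6 and 3.38 times for Lgals1, whereas 1 is the value of pure counting noise and S100a13 and Anxa6 stood at 1.10 and 1.08. In tumour the values were 2.50 for S100a4, 3.48 for S100a6, 2.56 for Lgals1, 1.08 for S100a13 and 1.12 for Anxa6. In lymph node S100a13 and Anxa6, with the smallest difference between the libraries, were thus closer to counting noise than S100a4. Their means were similar (0.357, 0.295 and 0.262 thinned UMIs per cell). At such low means a value near 1 does not show an even spread, and both differed between the effector bins and clusters given below. Anxa1 had too few UMIs to tell (4 thinned lymph node cells held one).

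Free RNA was measured in barcodes of 11 to 100 UMIs, 75220 in lymph node and 69268 in tumour. Here too the members were higher in tumour, at 3765 CPM summed in lymph node and 10800 CPM in tumour, a 2.87-fold difference. The retained cells held the members at 76.8% of the free level in lymph node and 106% in tumour. Melanoma genes outside the cell filter, led by Tyrp1, stood in tumour cells at 3.06% of their free level, and a free share of that size would give 2.14% (Anxa6) to 3.81% (Lgals3) of the tumour level of 9 members and 11.3% of that of Anxa1. In lymph node the B cell genes outside the filter stood at 70.5% of their free level on 75 UMIs, of which 54 were Bank1, and at 42.7% without Bank1. The share of free RNA in lymph node cells is therefore poorly fixed by these genes. The free level of S100a4 in lymph node was 247 CPM, and the 732 cells of lymph node cluster 1, described below, held it at 10.5 CPM. A free share of 42.7% or 70.5% would give more S100a4 than those cells held. In these cells Lgals3 stood at 45.4% of its free level, Anxa1 at 55.0%, Anxa2 at 61.9% and S100a10 at 66.2%. The other members stood at 77.4% (S100a4) to 103% (Anxa6). Anxa1 stood in tumour cells at 27.1% of its free level (21.0 to 35.1%) and Lgals3 at 80.5%.

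Barcodes that the filter left out held marker RNA of other cells, and whether some were doublets with T cells was not tested. The 15 barcodes rich in melanoma genes, at a median of 70488 UMIs, held S100a4 at 54.1 CPM, S100a6 at 73.5 CPM and Lgals3 at 14.5 CPM, below the retained tumour cells. Lgals1, at 2606 CPM, was below them too, while Anxa1, at 189 CPM, was above. The 3 macrophage barcodes of tumour held Lgals3 at 6818 CPM, Anxa1 at 428 CPM, S100a6 at 2126 CPM (1818 to 2472), Anxa2 at 1145 CPM (922 to 1406) and Lgals1 at 5472 CPM (4970 to 6011), each above the retained cells. The other 5 members were lower there than in the retained cells. These 3 barcodes had a median of 20497 UMIs. The 2 macrophage barcodes of lymph node, at a median of 6297 UMIs, held no UMI of Lgals3 or Anxa1, which allows up to 293 CPM. The 9 B cell barcodes of lymph node, at a median of 3309 UMIs, held no UMI of S100a4, Lgals1 or Lgals3, which allows up to 119 CPM, and held S100a11 at 323 CPM and Anxa6 at 291 CPM. Whether RNA of such cells adds to the members' levels in the retained cells was not tested.

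Within the lymph node library most members were lower in cells with more transcripts of resting T cells. Cells were binned by thinned UMIs of 9 genes of resting and recirculating T cells (Ccr7, Tcf7, Lef1, Klf2, S1pr1, Bcl2, Igfbp4, Satb1 and Bach2). S100a4 stood at 477 CPM in the 240 lymph node cells with no such UMI, 201 CPM with 1 or 2, 99.3 CPM with 3 to 5 and 21.3 CPM in the 626 cells with 6 or more. Lgals1 stood at 933, 499, 420 and 279 CPM over the same bins, and the 10 members summed at 4431, 2687, 2013 and 1446 CPM. Median depths before thinning were alike, from 3840.5 to 4252 UMIs.

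Taking 3 or more resting UMIs against 0 in lymph node, the ratio was 0.134 for S100a4 (0.108 to 0.165), 0.185 for S100a6, 0.256 for S100a11, 0.333 for Anxa2 and 0.381 for Lgals1. It was 0.531 for S100a10, 0.714 for S100a13 and 0.798 for Anxa6. At least 2-fold lower were 5 of the 8 members with 50 thinned UMIs, against 5.92% of genes, and none was 2-fold higher, against 2.75% of genes. Their median log2 ratio was -1.49, against -0.20 over all genes. Lgals3 (20 and 13 UMIs, ratio 0.268) and Anxa1 (2 and 2 UMIs) fell below that count. In tumour, where 37 cells held 3 to 5 resting UMIs and 11 held 6 or more, the members' median was -0.08, the same as over all genes at 2 decimals. There none of 9 members was 2-fold lower, against 13.1% of genes, and none was 2-fold higher, against 4.91%. Anxa2 stood lowest at 0.531 (0.362 to 0.753), Lgals1 at 0.581 and S100a4 at 1.17 (0.968 to 1.40) in that contrast.

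In lymph node most members were higher in cells with mitotic transcripts, and in tumour S100a4, S100a6 and Lgals3 were lower in such cells. This difference between the libraries was not tested. Among the mitotic lymph node cells the levels also differed with effector transcripts, as given below. The mitotic list was Mki67, Top2a, Ube2c, Ccnb1, Ccnb2, Cdk1, Birc5, Cenpf, Hmmr and Nusap1. In lymph node 43 cells held 3 or more thinned UMIs of it, with a median depth of 15454 UMIs before thinning against 4035 in the 2025 cells with none. S100a4 stood at 1098 CPM in the former and 117 CPM in the latter, a ratio of 9.40 (7.35 to 11.9). The ratio was 8.18 for S100a6, 10.0 for Anxa2, 8.42 for Lgals1, 3.11 for S100a10, 2.72 for S100a11 and 2.36 for S100a13, and Anxa6 stood at 1.70 (1.04 to 2.62). At least 2-fold higher were 7 of 8 members, against 20.3% of genes, and none was 2-fold lower, against 8.52%. The members' median log2 ratio was 2.33, against 0.27 over all genes. Lgals3 rested on 7 and 25 UMIs, a ratio of 13.2 (4.82 to 31.4), and Anxa1 on 0 and 2.

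In tumour 276 cells held 3 or more mitotic UMIs, at a median depth of 17995 UMIs against 6981 in the 830 with none. S100a4 stood at 803 CPM in these mitotic cells and 1390 CPM in cells with none, a ratio of 0.578 (0.518 to 0.644), and S100a6 at 0.560. Lgals3 stood at 42.3 and 174 CPM, a ratio of 0.243 (0.148 to 0.379). Lgals1 was close to even at 1.11, and Anxa2 at 0.887 (0.776 to 1.01). At least 2-fold lower was 1 of 9 members, against 4.7% of genes, and none was 2-fold higher, against 5.91%. The median was -0.26, against -0.06 over all genes. Lgals1 stood at 3127 CPM (2745 to 3546) in mitotic cells of lymph node and at 3861 CPM (3690 to 4037) in those of tumour, where the whole libraries differed 5.34-fold. S100a4 stood at 1098 CPM (877 to 1358) in mitotic cells of lymph node and at 803 CPM (726 to 886) in those of tumour. This order is the reverse of that in the whole libraries. The intervals overlapped only at their ends, and no interval of the ratio was computed.

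Member levels also differed over bins of an effector list (Gzmb, Ccl5, Ccr2, Klrg1, Id2, Cxcr3, Icos, Itgae and Cd44), added after the clusters had been seen. It holds Ccl5 and Cxcr3, leading genes of lymph node cluster 2, and Icos, the gene most like S100a4 and S100a6 across lymph node cells (given below). These bins are thus not independent of the member levels, and no share over all genes was counted for them. S100a4 stood at 41.7 CPM in 1532 lymph node cells with no UMI of the list, 169 CPM in 494 with 1 or 2 and 982 CPM in 176 with 3 or more. In tumour it stood at 776, 787 and 1364 CPM. Over the same lymph node bins S100a10 stood at 630, 1067 and 2052 CPM, S100a11 at 156, 407 and 824 CPM, S100a13 at 176, 217 and 344 CPM and Anxa6 at 151, 180 and 230 CPM. Lymph node cells with no mitotic UMI and 3 or more effector UMIs numbered 144, at a median depth of 3664 UMIs. They held S100a4 at 822 CPM (715 to 940) and S100a6 at 872 CPM, where the 43 mitotic cells held 1098 CPM (877 to 1358) and 1059 CPM. The intervals overlapped, which does not show equal levels. Lgals1 was at 1026 CPM (907 to 1157) there and at 3127 CPM in the mitotic cells, and Anxa2 at 108 CPM (71.8 to 156) and 388 CPM (262 to 553), without overlap. Of the 43 mitotic cells, 19 held no effector UMI, with S100a4 at 556 CPM (334 to 868) and S100a6 at 146 CPM (47.5 to 341). S100a13 stood there at 205 CPM, Anxa2 at 322 CPM and Lgals1 at 1988 CPM. In the 24 mitotic cells with 1 or more effector UMIs these 5 members stood at 1528, 1782, 648, 440 and 4028 CPM. In the 1434 lymph node cells with neither kind of UMI 43 held a UMI of S100a4, while Lgals1 was found in 31.2% and S100a10 in 60.7%.

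**Figure D3:**
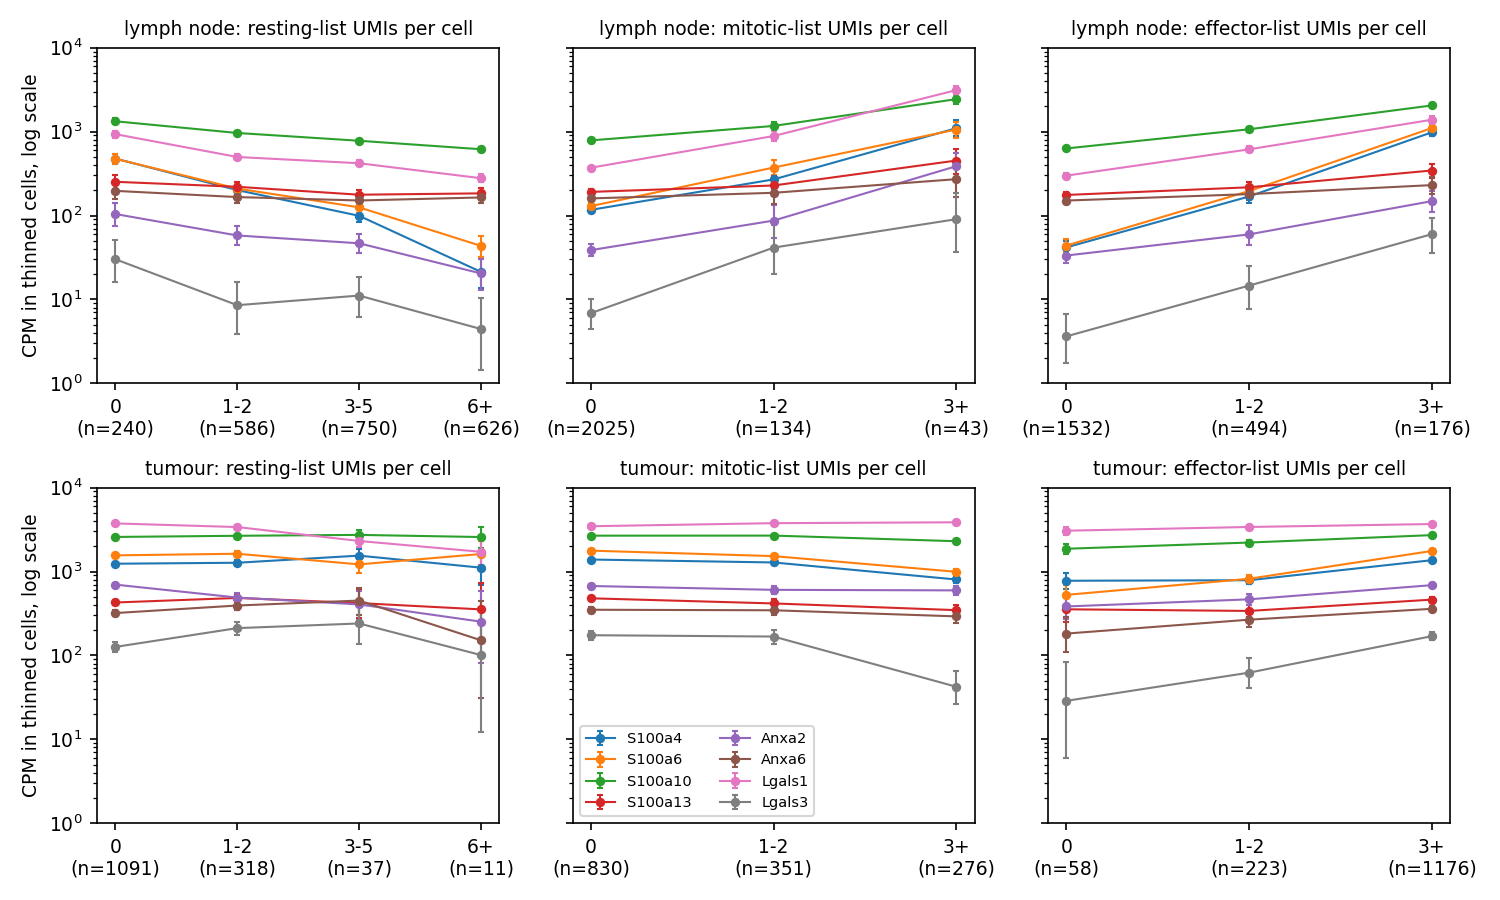
Levels of 8 members (CPM in cells thinned to 1800 UMIs, log axis, whiskers are 95% counting intervals) over bins of resting, mitotic and effector list UMIs per cell, lymph node above and tumour below, with the number of cells under each bin. In lymph node S100a4 spans 21.3 to 477 CPM over the resting bins, and in tumour it stays between 1111 and 1547 CPM.

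Clusters were made without the members, and their summed level differed more among those of lymph node than among those of tumour. In lymph node S100a4 was at 10.5 to 12.1 CPM in clusters 1, 3 and 4, led by Plac8 and Dapl1, by Atp1b1 and Satb1, and by Slc22a2 and Lad1. It was at 107 CPM in the interferon cluster 6 (Rsad2, Ifit1), 152 CPM in cluster 5 (Egr2, Nr4a1), 408 CPM in cluster 2 (Tox2, Ccl5, Cxcr3) and 745 CPM in the 61 cells of cluster 7 (Hmmr, Nusap1). Cluster 7, at a median of 16122 UMIs per cell, was highest for each of the 10 members. Its Lgals1 level was 3369 CPM against 115 to 785 CPM elsewhere, and it held 128 of the 195 Lgals3 UMIs and 19 of the 27 Anxa1 UMIs of the library. S100a13 and Anxa6 varied least, by 2.11-fold and 2.62-fold between their lowest and highest clusters, where S100a4 varied 70.7-fold and S100a6 89.2-fold. Over the tumour clusters S100a4 varied 3.52-fold, S100a6 3.24-fold and Anxa6 1.39-fold, while S100a13, at 2.25-fold, spanned slightly more than in lymph node.

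In tumour the summed members ran from 8332 to 14154 CPM over the clusters, 1.70-fold, where in lymph node they ran from 1030 to 9285 CPM, 9.02-fold. S100a4 was lowest, at 462 CPM, in cluster 6 (Pus7, Ung, Srm, Orc1, median 22960 UMIs) and highest, at 1626 CPM, in cluster 1 (Mmp9, Il1rn, Ccr1). That lowest value was above those of 6 of the 7 lymph node clusters. Anxa1 was at 20.6 CPM in cluster 1 and 13.7 CPM in cluster 2 (Tcf7, Klf3, Ifit3), and between 1.60 and 6.24 CPM in the others. Lgals3 was highest in cluster 5 (Csf1, Ccl3, Lag3) at 231 CPM and lowest in cluster 6 at 41.0 CPM. Lgals1 was highest in cluster 4 (Tff1, Xcl1, Ccr7) at 4589 CPM and lowest in cluster 2 at 2821 CPM, while Anxa2 was at 448 CPM in cluster 2 and 850 CPM in cluster 1. Clusters were made in each library on its own, so a number does not name the same cells in both.

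**Figure D4:**
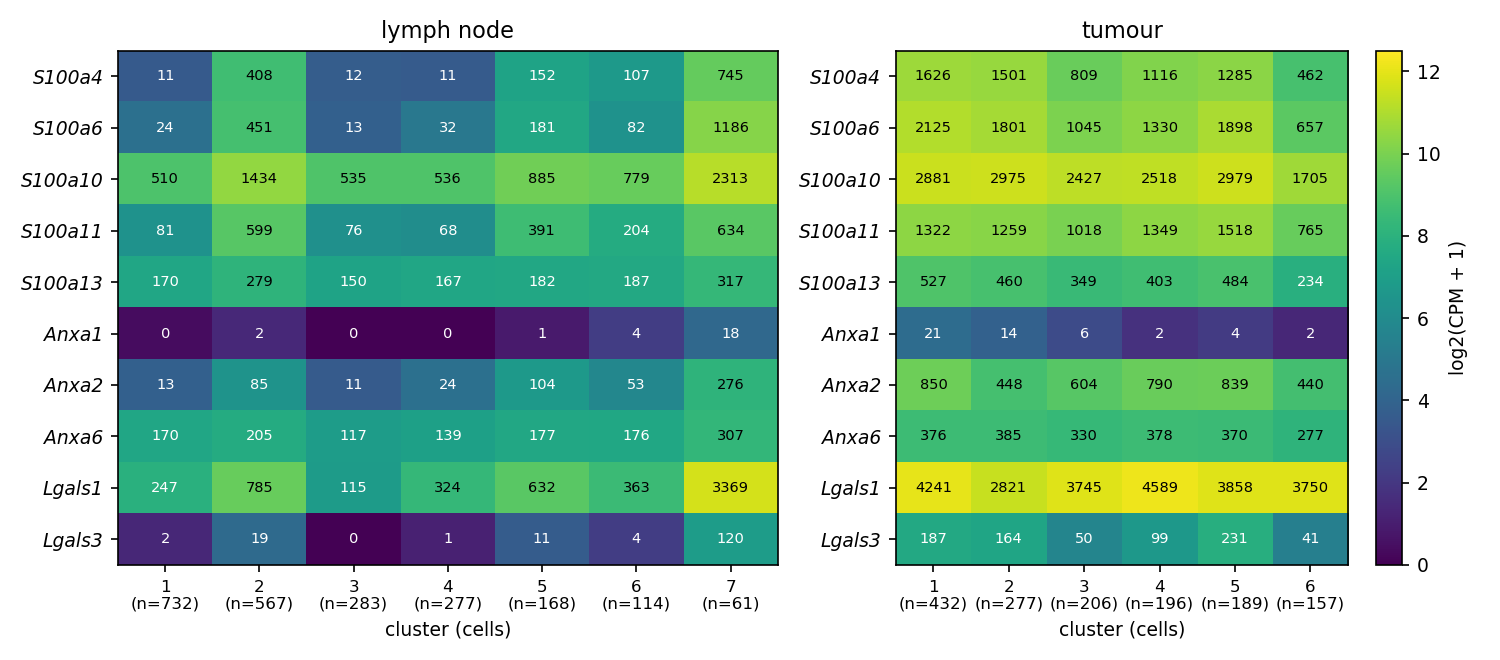
CPM of each member (rows, value printed in each field, colour on a log2(CPM + 1) scale) in the clusters of lymph node (left) and tumour (right), with cells per cluster below. The low fields of S100a4, S100a6 and Anxa2 in lymph node clusters 1, 3 and 4 have no counterpart in tumour, where the lowest S100a4 field is 462 CPM.

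Across cells of 1 library the members were weakly to moderately correlated, on log2(thinned UMIs + 1). Of the 45 pairs S100a4 and S100a6 had the highest Pearson r in both libraries, 0.577 over 2202 lymph node cells and 0.332 over 1457 tumour cells. The median pair stood at 0.171 in lymph node and 0.116 in tumour. An r over 0.3 was reached by 12 pairs in lymph node, drawn from S100a4, S100a6, S100a10, S100a11, Anxa2, Lgals1 and Lgals3, and by 1 pair in tumour. Cells of a library share its processing and are not replicates, so these values describe and are given no p.

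**Figure D5:**
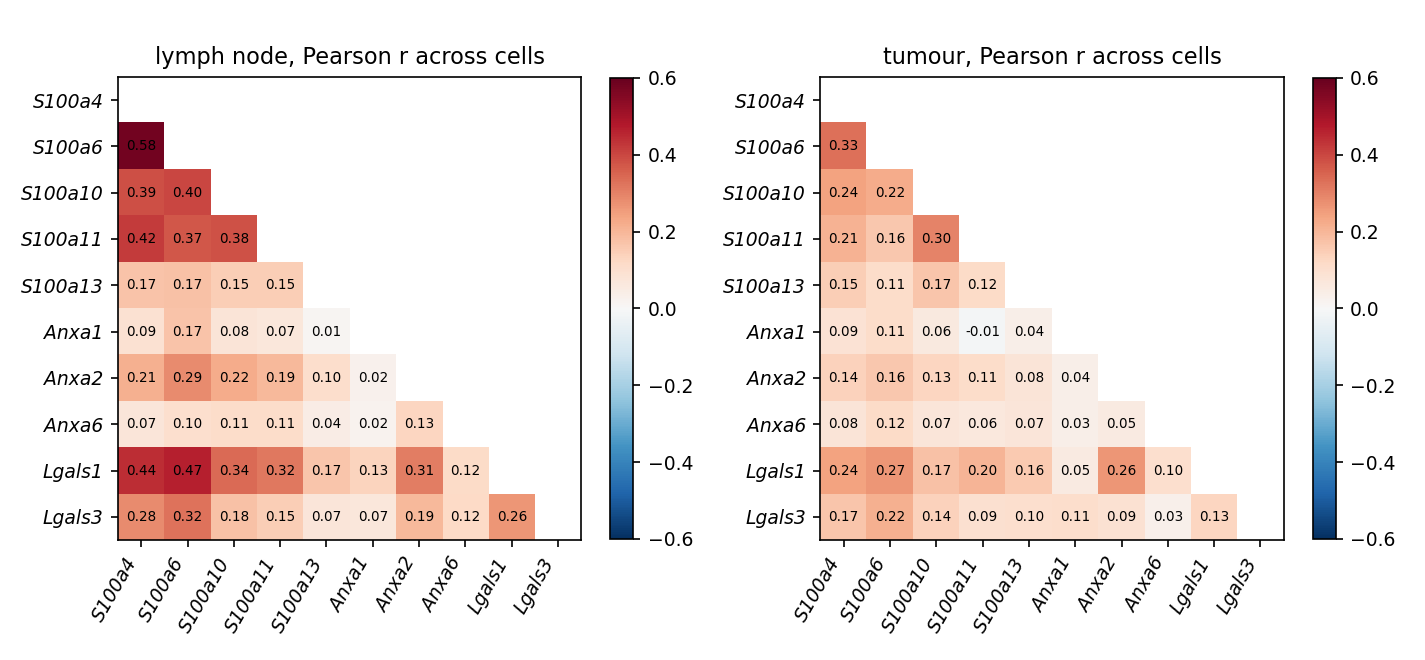
Pearson r between each pair of members across the cells of lymph node (left) and tumour (right), all thinned to 1800 UMIs, with the value printed in each field. S100a4 with S100a6 is the highest field of both, at 0.58 and 0.33, and no field of S100a13, Anxa1 or Anxa6 is above 0.17.

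The genes most like a member across lymph node cells, among 1681 genes with a UMI in at least 10% of thinned cells, were Icos (r of 0.345) and Glrx (0.340) for S100a4, followed by Vim (0.296) and Maf (0.288). For S100a6 they were the same pair (0.354 and 0.332), then Vim (0.329) and Crip1 (0.277). Icos encodes a costimulatory receptor and Glrx a glutaredoxin. For Lgals1 they were Vim (0.361), Hmgb2 (0.299), Crip1 (0.290) and Actg1 (0.274), and for Anxa2 Vim (0.221), Hmgb2 (0.210), Prr13 (0.150) and Gapdh (0.139). Vim, which encodes vimentin, was thus among the 4 for each of these members. In tumour, among 2037 genes, Tmsb4x and Vim came first for S100a4 (0.330 and 0.297) and for S100a6 (0.319 and 0.289), with Cd52 and Actg1 next for both. Tmsb4x encodes thymosin beta-4, a protein that binds free actin. Vim (0.286), Tmsb4x (0.271), Nkg7 (0.246) and Pfn1 (0.234) came first for Lgals1, and Nkg7 (0.269), Sdf4 (0.207), Lag3 (0.191) and Gapdh (0.185) for Anxa2. Anxa1 reached no r above 0.186 in either library, led by Ebp in lymph node and by Gzmb (0.128) in tumour. Only 4 thinned lymph node cells and 22 thinned tumour cells held a UMI of Anxa1, too few to rank genes by.

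Other genes of the 3 families were taken from a list. Of 28 listed, 27 were in the files, 11 held at least 20 UMIs over both libraries, and 6 (S100a8, S100a9, Anxa8, Anxa10, Anxa13 and Lgals12) were at 0 in both. Of the 9 with at least 50 UMIs, the minimum also used for all genes, tumour was at least 2-fold above lymph node for 3, against 13.2% of all genes, and 2-fold below it for none, against 7.7%. Among the 11, 4 were 2-fold higher and 7 lay between. Anxa4 stood at 5.99 and 27.0 CPM, a 4.51-fold difference (3.46 to 5.95). Lgals7 stood at 2.15 and 23.3 CPM (23 and 388 UMIs), a 10.8-fold difference (7.10 to 17.3). S100a1, which is transcribed away from S100a13, stood at 24 and 126 UMIs, a 3.36-fold difference, and S100b at 3 and 17 UMIs. S100b stood in tumour cells at 3.12% of its free level and S100a1 at 20.6%, where melanoma genes stood at 3.06%. Between 1.04 and 1.80-fold were the annexins Anxa5 (1.67), Anxa7 (1.80) and Anxa11 (1.55), the galectins Lgals4 (1.04), Lgals8 (1.37) and Lgals9 (1.55), and S100a3 at 1.23 (0.607 to 2.62). The median log2 ratio of the 9 with at least 50 UMIs was 0.74, against 0.14 over all genes.

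Partners of the families differed in both directions. Of 28 listed binding partners, counter-receptors and glycan enzymes, 24 held at least 20 UMIs, of which 6 were at least 2-fold higher in tumour, 5 were 2-fold lower and 13 lay between. Of the 23 with at least 50 UMIs, 6 were higher and 4 lower, where 13.2% and 7.7% of all genes were. Higher were Lag3, a checkpoint receptor that galectin-3 can bind, at 19.0 and 179 CPM (9.39-fold), Havcr2, which encodes the galectin-9 receptor TIM-3, at 2.53 and 28.7 CPM (11.4-fold), and Lgals3bp, which encodes a secreted galectin-3 ligand, at 31.8 and 177 CPM (5.56-fold). The intermediate filament gene Vim (3.16-fold), the surface glycoprotein gene Bsg (2.51-fold) and the lysosomal Lamp2 (2.64-fold) were higher as well. Lower were Cd7, a galectin-1 counter-receptor, at 41.1 and 8.76 CPM (0.213), and Lamp1 at 119 and 51.2 CPM (0.431). The glycosyltransferase genes St6gal1, whose product caps sugars with sialic acid and so hides galectin-1 sites, and Mgat5, whose product branches the sugars that galectins bind, stood at 0.312 and 0.455. Ager, which encodes a receptor for S100 proteins, stood at 22 and 6 UMIs (0.175). The formyl peptide receptor genes Fpr1 and Fpr2 and the S100A10-linked receptor gene Plaur were at 0 in both. The median log2 ratio of the 23 partners with 50 UMIs was 0.09.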

How the data were processed

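The data are whole-number UMI counts per gene and barcode from 2 droplet libraries (10x 3' chemistry, per the labels' protocols), deposited by the authors without normalization. Per the submitters' processing notes Cell Ranger and mm10 were used (no version or annotation stated there). A cell needed a UMI total of 1811 in lymph node or 3834 in tumour (10% of percentile 99 among the 3000 largest barcodes), at least 200 genes, at most 10% mitochondrial UMIs, under 20 UMIs of Pmel, Dct and Mlana, under 3 of C1qa, C1qb and Lyz2 and under 2 of Cd79a and Ms4a1. Doublets were kept and no caller was run. Counts were summed over cells and scaled to CPM, so deep cells weigh more. Ratios carry exact conditional-binomial intervals, sums exact Poisson and shares Clopper-Pearson intervals (95%), which cover counting error only. Counts of genes 2-fold apart use those with 50 or more UMIs in all. Cells were thinned once to 1800 UMIs with a fixed seed. Clusters (Leiden, resolution 0.6, 2000 genes, 20 components, 15 neighbours; scanpy 1.11.5) left out the members. The code was tested on simulated data. TMM factors came from edgeR 4.0.16. The 10 members, the lists and the rule for named genes (the members, family genes with 20 UMIs, partners 2-fold apart, the 4 genes most like 5 members) were chosen with earlier results of these data known. One gene of the resting list was left out after the results had been seen and is not reported here. Of 27998 identifiers, 27645 were found in GENCODE M21.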

Additional observations from a re-analysis of the deposited data

Results flagged for a closer look

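For 6 members, values stood out because a contrast within each library ran in opposite directions in lymph node and tumour, with both counting intervals clear of 1. The difference between the libraries was not tested, since each has 1 sample. For 3 or more mitotic UMIs against 0, the ratio in lymph node and then in tumour was 9.4 and 0.578 for S100a4, 8.18 and 0.56 for S100a6, 3.11 and 0.859 for S100a10, 2.72 and 0.837 for S100a11, 2.36 and 0.722 for S100a13, and 13.2 and 0.243 for Lgals3. The lymph node value of Lgals3 rested on 7 UMIs in mitotic cells. The 19 mitotic lymph node cells without effector UMIs held S100a4, S100a6 and S100a13 at 556, 146 and 205 CPM. Lymph node cells with 0 mitotic UMIs, some of which held effector UMIs, held them at 117, 129 and 191 CPM. The 1434 lymph node cells with neither kind of UMI held them at 32.9, 42.2 and 172 CPM. The libraries also differed in the resting list (2047 CPM in lymph node, 180 CPM in tumour), and their cells with 0 mitotic UMIs in depth (medians of 4035 and 6981 UMIs). The part of either was not tested.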

How the results depend on the processing

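No paired analysis was possible because each group has 1 library, and no replicate could be left out. Over 15 alternative settings, 145 of 146 single values of the members stayed higher in tumour. The exception was Anxa1 in cells with a Foxp3 UMI, at a log2 ratio of -0.29 on 13 and 26 UMIs. The count of members at least 2-fold higher was 7 to 10 of 10 in 14 settings, and none was 2-fold lower in any. When free RNA was subtracted in both libraries only 6 members kept a value above 0 in lymph node, 5 of them at least 2-fold higher with a median log2 ratio of 2.65. That subtraction rests on Bank1 in lymph node, and its share of 70.5% would give more S100a4 than lymph node cluster 1 held. The median log2 ratio, 2.20 as reported, was 2.11 with TMM scaling (edgeR), 2.07 with the median of all genes set to 0, 2.04 with the UMI threshold doubled and 1.61 in cells with a Foxp3 UMI. It was 2.96 with every cell weighing the same, 3.02 in thinned cells, 3.30 without cells of 3 or more mitotic UMIs, 3.20 without the deepest 5% and 3.24 in cells of 4000 to 8000 UMIs. In other settings it lay between the medians of the members' lower and upper interval limits. These were a mitochondrial limit of 5%, and no limits (2.37) or stricter limits on other cells. They also were free RNA subtracted in tumour alone and leaving out cells of 3 or more melanoma UMIs. The last of these and the depth band were chosen after seeing the data, as was the subtraction in tumour alone. With 1 UMI as the minimum, 1612 of 12636 genes were 2-fold lower in tumour, against 768 of 9976. In barcodes of 51 to 100 UMIs the free level of the members in lymph node was 3603 CPM, against 3765. Depth limits Anxa1 most, with 4 and 22 thinned cells that held a UMI.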
